A study of Mus musculus with 22 samples.

Results

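The 42 genes described here encode parts of the lysosome and of the autophagy machinery. They were chosen by gene symbol, and 41 of the 42 occur in the deposited table of 11208 genes. The protease gene Ctsf is not listed in that table and has no value here. RNA was measured in NIH/3T3 cells, an established line of mouse embryonic fibroblasts, carrying either a construct that expresses E2F1 upon addition of doxycycline or the empty vector (EV). Whether each line is a clone or a pool is not given in the sources used here.

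All cells, controls included, were first held for 48 h in medium with 0.25% serum. The E2F1 line was then sampled at 0 h and after 2, 6 and 12 h in 500 ng/ml doxycycline. The EV line was sampled at 0 h, after 2, 6 and 12 h in the same doxycycline, and after 2, 6 and 12 h in 10% serum. The EV 0 h libraries served as the start of both EV series. There were 11 groups of 2 libraries each, 22 in all. The labels do not say that the 2 libraries of a group came from separate cultures, so every p-value measures the spread between these libraries, which may be technical. The design sets forced E2F1 expression beside serum addition as ways out of quiescence, and the comparisons below ask what lysosome and autophagy transcripts did on each route.

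Lysosomes are acidic organelles in which hydrolases degrade proteins, lipids, glycans and nucleic acids. Macroautophagy delivers cytoplasm to them in double-membrane vesicles, built by the ULK kinase complex, a class III PI3-kinase complex containing Beclin 1 and ATG14, the lipid carriers ATG2 and ATG9, and the conjugation of ATG8 proteins (LC3 and GABARAP) to membrane lipid. In starved cells, low mTORC1 activity frees the ULK kinases and lets the factors TFEB, TFE3 and MITF enter the nucleus, where they bind the CLEAR element, a palindromic E-box found near many lysosomal genes. Serum growth factors raise mTORC1 activity. E2F1 is a transcription factor that activates genes of DNA synthesis and S-phase entry.

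RefSeq promoter windows of 300 bases (250 before and 50 after a start site, GRCm38.p6) matched 35 of the 41 genes. Both strands were searched for the CLEAR core TCACGTGA, for the shorter E-box CACGTG that it contains, and for the E2F motif TTTCCCGC or TTTGGCGC. The CLEAR core occurred at 5 of the 35 genes (14.286%), against 2.451% of the 8609 genes of the table with a window and 0.974% of all 32851 windows. The E-box occurred at 11 of 35 (31.429%, against 12.104% of the table's genes and 7.15% of all windows), and an E2F motif at 3 of 35 (8.571%, against 3.787% and 1.565%). The genes with the CLEAR core were Mcoln1, Gla, Ctsa, Ctsd and Atp6v0d1, and those with an E2F motif were Atg14, Atg7 and Atp6v0d1. The windows of the CLEAR genes and of Atg14, the gene with a pair of E2F motifs, follow 5′ to 3′ on the strand of the gene, because their transcripts moved in different directions. Capitals mark the CLEAR core and the E2F motif. A match is a description of letters and not a site of binding.

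Mcoln1 (chr8:3500269-3500568, plus strand, CLEAR core from base -46 relative to the start site):
Mcoln1: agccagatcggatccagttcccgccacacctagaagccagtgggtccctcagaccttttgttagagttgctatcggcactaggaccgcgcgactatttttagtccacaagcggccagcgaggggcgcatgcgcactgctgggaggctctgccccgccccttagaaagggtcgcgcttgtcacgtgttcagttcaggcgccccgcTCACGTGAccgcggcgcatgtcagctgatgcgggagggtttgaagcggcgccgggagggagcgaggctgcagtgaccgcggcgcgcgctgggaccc
Gla (chrX:134600956-134601255, minus strand, CLEAR cores from -228 and -195):
Gla: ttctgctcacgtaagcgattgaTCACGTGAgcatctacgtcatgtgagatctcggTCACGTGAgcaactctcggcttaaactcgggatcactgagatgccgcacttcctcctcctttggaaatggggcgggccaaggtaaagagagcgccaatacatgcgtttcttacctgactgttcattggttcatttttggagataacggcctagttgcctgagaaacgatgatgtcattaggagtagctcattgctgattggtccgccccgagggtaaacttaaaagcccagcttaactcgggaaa
Ctsa (chr2:164833523-164833822, plus strand, the second of its 2 windows, CLEAR cores from -13 and 5):
Ctsa: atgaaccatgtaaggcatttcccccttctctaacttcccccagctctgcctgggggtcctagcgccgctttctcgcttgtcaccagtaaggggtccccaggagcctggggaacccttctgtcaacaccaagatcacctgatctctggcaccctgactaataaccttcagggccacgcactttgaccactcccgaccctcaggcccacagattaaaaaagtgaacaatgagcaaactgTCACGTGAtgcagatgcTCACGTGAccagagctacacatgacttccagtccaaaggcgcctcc
Ctsd (chr7:142387778-142388077, minus strand, CLEAR core from -99):
Ctsd: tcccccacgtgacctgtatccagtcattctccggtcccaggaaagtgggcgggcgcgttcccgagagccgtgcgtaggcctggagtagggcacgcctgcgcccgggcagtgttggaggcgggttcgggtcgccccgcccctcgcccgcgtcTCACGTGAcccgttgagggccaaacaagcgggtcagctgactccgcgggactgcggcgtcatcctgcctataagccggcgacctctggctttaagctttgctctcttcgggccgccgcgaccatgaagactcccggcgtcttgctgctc
Atp6v0d1 (chr8:105566015-105566314, minus strand, E2F motif from -245 and CLEAR core from -4):
Atp6v0d1: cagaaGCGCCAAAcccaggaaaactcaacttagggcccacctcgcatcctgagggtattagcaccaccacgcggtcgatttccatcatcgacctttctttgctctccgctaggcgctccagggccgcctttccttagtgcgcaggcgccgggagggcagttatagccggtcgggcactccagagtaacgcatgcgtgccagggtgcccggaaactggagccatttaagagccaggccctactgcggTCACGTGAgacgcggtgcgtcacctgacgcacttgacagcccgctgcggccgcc
Atg14 (chr14:47568385-47568684, minus strand, E2F motifs from -189 and -66):
Atg14: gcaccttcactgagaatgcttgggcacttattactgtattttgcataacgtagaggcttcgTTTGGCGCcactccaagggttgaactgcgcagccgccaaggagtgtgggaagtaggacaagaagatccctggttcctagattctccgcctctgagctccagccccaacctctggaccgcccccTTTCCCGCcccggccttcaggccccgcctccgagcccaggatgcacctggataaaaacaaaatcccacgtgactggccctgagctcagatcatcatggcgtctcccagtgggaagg

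The values are normalized counts, rounded to whole numbers by the authors, with totals of 34014608 to 46057140 per library. E2f1, the induced gene, had 1703 and 1637 normalized counts at 0 h in the E2F1 line, 1535 and 1755 at 2 h, 3806 and 3602 at 6 h, and 2683 and 2845 at 12 h. In the EV line it had 1635 and 1655 at 0 h, 1345 and 1635 after 12 h of doxycycline, and 802 and 740, 1186 and 956, and 4615 and 4247 after 2, 6 and 12 h of serum. The E2f1 count was thus raised on both routes at 12 h, by less in the E2F1 line than in serum (difference -0.70 ± 0.16 on the log2 scale, limma adjusted p = 0.00114). Whether transcripts of the construct are counted in this gene is not given in the sources used here. These counts therefore cannot compare the amount of E2F1 on the 2 routes. Ddx3y marked the E2F1 line, with 580 and 521 at 0 h against 9 and 4 in the EV line. At 2 h the libraries labelled E2F1 doxycycline had 329 and 316, those labelled EV doxycycline 103 and 71, and those labelled EV serum 132 and 170. Tmem176b, chosen after its values were seen, went the same way: 2070 and 2432 at 0 h in the E2F1 line but 849 and 687 at 2 h, and 25 and 49 in the EV line at 0 h but 93 and 134 at 2 h in doxycycline and 137 and 83 at 2 h in serum. The 2 h libraries thus stood apart from their lines in these genes, and the part of this in the 2 h results was not tested. Smaller departures were present later. Ddx3y had 48 and 35 at 6 h and 29 and 19 at 12 h of serum, where Tmem176b lay below its 0 h values (19 and 20, then 7 and 17). In the E2F1 line at 6 h, Ddx3y had 415 and 435 and Tmem176b 1382 and 1753, below 0 h. At 12 h in that line Tmem176b was again below 0 h (1060 and 1590), while Ddx3y (546 and 446) overlapped it. After 6 h of doxycycline in the EV line, Ddx3y had 31 and 18, above 0 h, while Tmem176b (48 and 37) overlapped it. The part of these in the later results was not tested either. All 8 fibroblast markers of a fixed list were in the table, with a summed level of 651595 to 1342928. None of 4 epithelial and 3 endothelial markers was listed, and of 5 leukocyte markers only Csf1r was, at 33 to 735.

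At the start, in the EV line at 0 h, the 41 genes spanned a wide range of levels. Per kilobase of exon, Psap (prosaposin, precursor of the sphingolipid activator proteins) was highest at 15574.5 normalized counts, from 43082 and 42391 in the libraries. It was followed by the proteases Ctsd at 6025.73 and Ctsl at 5060.26 per kilobase, the membrane glycoprotein Lamp1 at 4564.11 and the autophagy receptor Sqstm1 at 4530.24. Ctsl rested on unequal libraries (26144 and 39528), so its order against Ctsd and Lamp1 is not settled by these values. The lowest were Atg16l1 at 92.4387, the cholesterol exporter Npc1 at 82.7516 and the transcription factor Mitf at 57.6178 per kilobase. No member in the table was near zero in any library: the lowest value was 216. No filter on low values was applied here. The lowest mean of any gene in the table was 99.59. Whether genes, Ctsf among them, were removed for low values before deposit is not given in the sources used here. In the table, 21 members overlap another annotated gene, and whether the counting used strand is not given in the sources used here, so reads of an antisense neighbour cannot be told apart. Antisense neighbours are annotated for Lamp1 (Grtp1), Npc1 (Rmc1 and Gm15956), Ctsa (Neurl2 and Pltp), Ctsb (Fdft1), Ctsl (Gm47123), Ctsz (Nelfcd), Hexa (Tmem202), Grn (Fam171a2), Atp6v1h (Rgs20), Mitf (Gm15531), Sqstm1 (Mrnip), Map1lc3b (Zcchc14), Gabarapl1 (1700101I11Rik), Becn1 (Cntd1), Atg14 (Gm49004 and Gm6616), Atg9a (Ankzf1) and Atg4b (Thap4). A neighbour on the same strand alone is annotated for Ctsd, Atg5, Atg7 and Atg16l1.

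After doxycycline in the E2F1 line, more lysosome and autophagy transcripts fell than rose. A gene was called where limma, fitted to log2(value + 1) of all libraries, gave a Benjamini-Hochberg adjusted p of at most 0.05 over all 11208 genes. Changes are on that log2 scale, with the standard error (SE). At 12 h of doxycycline in the E2F1 line, 8 of the 41 rose and 18 fell, where 31.8% of all genes rose and 29.7% fell. Their median change was -0.18, against -0.02 over all genes. At 6 h, 6 rose and 11 fell (all genes: 28.8% and 22.9%), with a median of -0.10 against -0.03. Falls also outnumbered rises with quantile normalization (5 higher and 21 lower at 6 h, 5 and 23 at 12 h) and with equal library totals (5 and 19 at 6 h, 6 and 20 at 12 h). Quantile normalization moved the median change of all genes by -0.106 at 6 h and -0.0946 at 12 h. Equal totals moved it by -0.117 and -0.0581. The shares of all genes called under these scalings are not given here, so these member counts lack that background. At 2 h no member passed in limma (all genes: 0.865% higher, 0.99% lower). At an unadjusted limma p under 0.05 there were 2, Npc1 and Map1lc3b. That count is given without the share of all genes and is not read as a change. The 6 h total of 17 dropped to 10 without E2F1 0 h replicate 1.

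The same doxycycline in the EV line gave few calls among these genes at 6 and 12 h. No member passed limma's threshold at 6 h (all genes: 0.134% higher, 0% lower), and 2 had an unadjusted p under 0.05. At 12 h, Ulk1 alone passed (0.42 ± 0.10 SE, adjusted p = 0.0168; all genes: 0.749% higher, 3.42% lower), and it was lost without EV 0 h replicate 2 (0.2496, adjusted p = 0.421) or EV doxycycline 12 h replicate 1 (0.3714, adjusted p = 0.179). The count was 3 without EV 0 h replicate 1 and 2 without EV doxycycline 12 h replicate 2. An unadjusted p under 0.05 was found for 7 members. These unadjusted counts at 6 and 12 h are given without the share of all genes and are not read as changes. At 2 h, 6 members were called higher and none lower (all genes: 4.93% and 2.43%): Gla, Sqstm1, Atp6v1h, Tfe3, Atp6ap1 and Atg4b. None of those 6 calls held under every alternative, 3 were left without EV 0 h replicate 2 or EV doxycycline 2 h replicate 1, and none without EV doxycycline 2 h replicate 2. The EV doxycycline 2 h libraries are among those whose Ddx3y and Tmem176b levels stood apart.

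Serum gave more calls among these genes than doxycycline did in the same line, with rises and falls at each time. At 2 h, 14 members rose and 13 fell (all genes: 37.5% and 33.5%), at 6 h 9 rose and 17 fell (36.5% and 31%), and at 12 h 9 rose and 19 fell (36% and 29.7%). The members' medians were 0.09, -0.13 and -0.18, against 0.03, 0.03 and 0.05 over all genes. Serum libraries had higher totals, 45073651 and 46057140 at 2 h against 34680926 and 35600629 at 0 h. Equal totals shifted the median change of all genes by -0.374 at 2 h, -0.214 at 6 h and -0.0813 at 12 h. Quantile normalization shifted it by -0.0765, -0.045 and -0.0723. Under equal totals 6 members rose and 24 fell at 2 h, 4 and 23 at 6 h, and 6 and 20 at 12 h, and under quantile normalization 6 and 22, 5 and 22, and 7 and 21. The balance of rises and falls at 2 h of serum therefore depends on the scaling, while falls outnumbered rises at 6 and 12 h under each of the 3 scalings. Csf1r, the leukocyte marker in the table, was at 365 to 735 in the serum libraries and at 33 to 229 in the others, and its part was not tested.

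**Figure D1:**
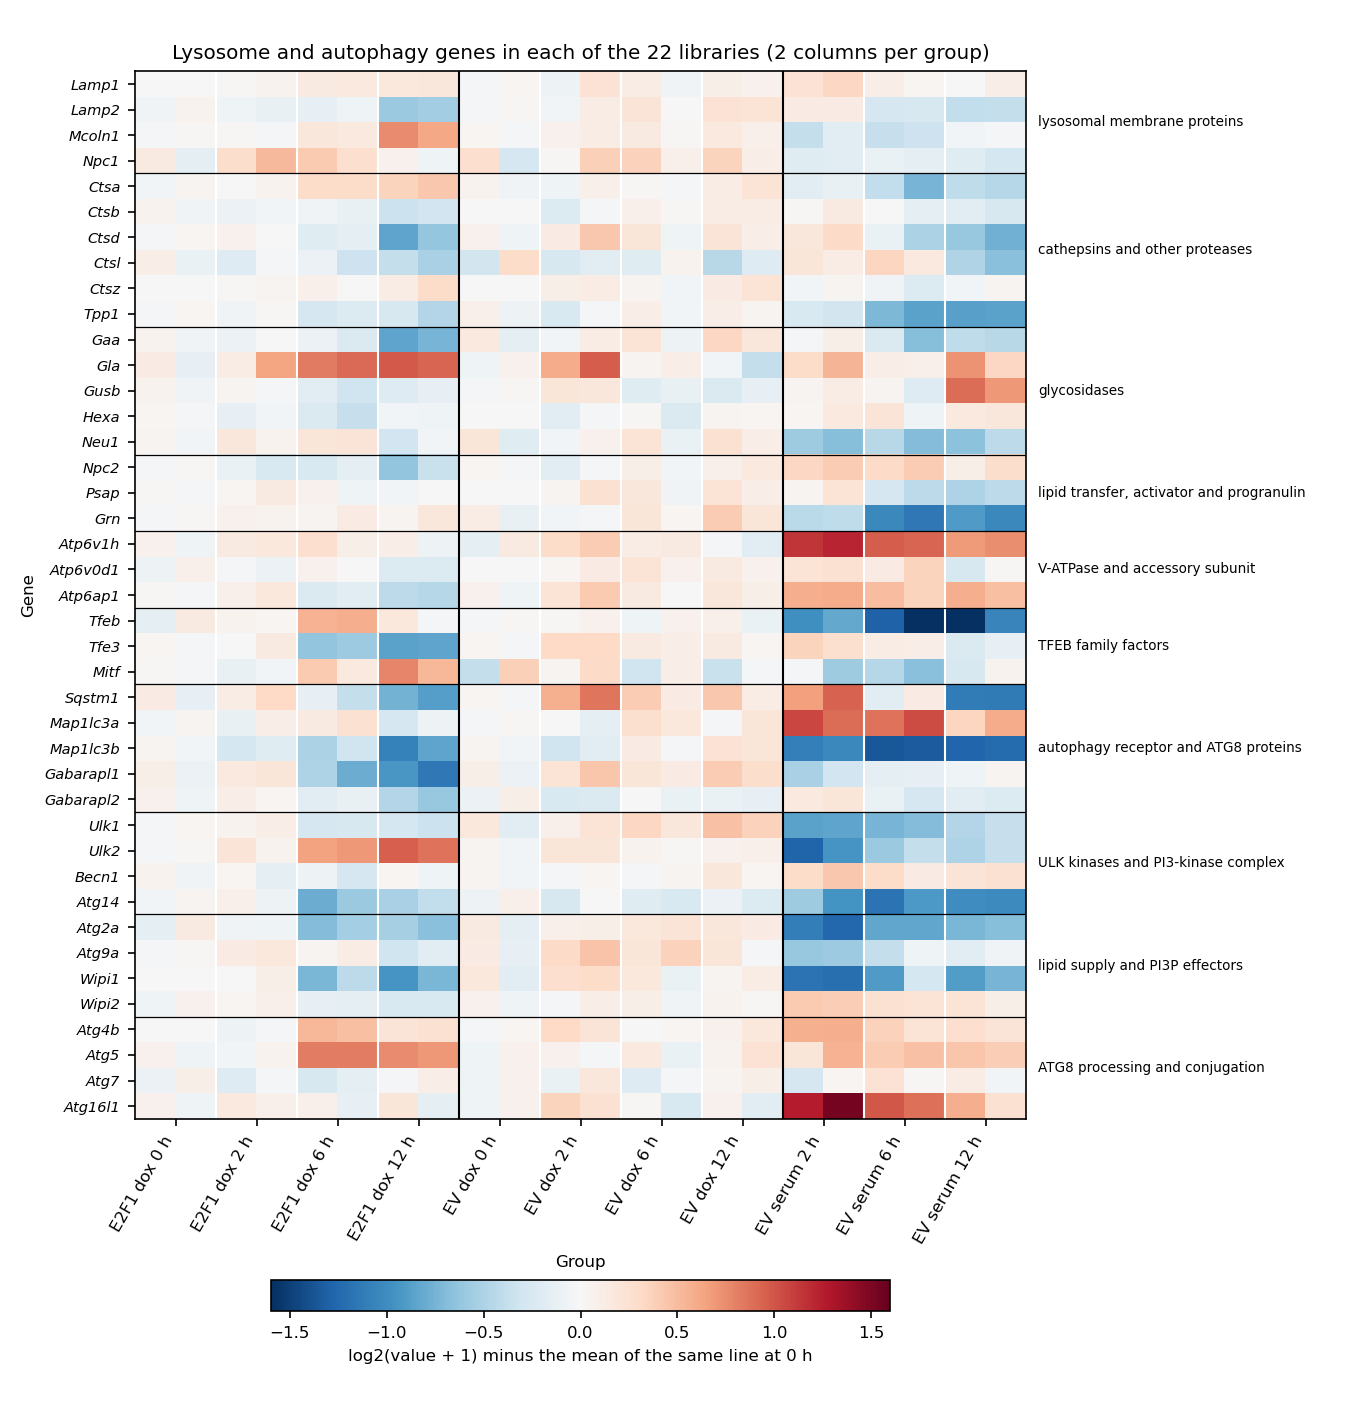
Each row is a gene, grouped by role, and each column a library, in pairs by group; colour is log2(value + 1) minus the mean of the same line at 0 h. The E2F1 6 h and 12 h columns and the serum columns hold the strong colours, with Atp6v1h, Map1lc3a and Atg16l1 red in serum, and Ulk2 red in the E2F1 line and blue in serum.

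**Figure D2:**
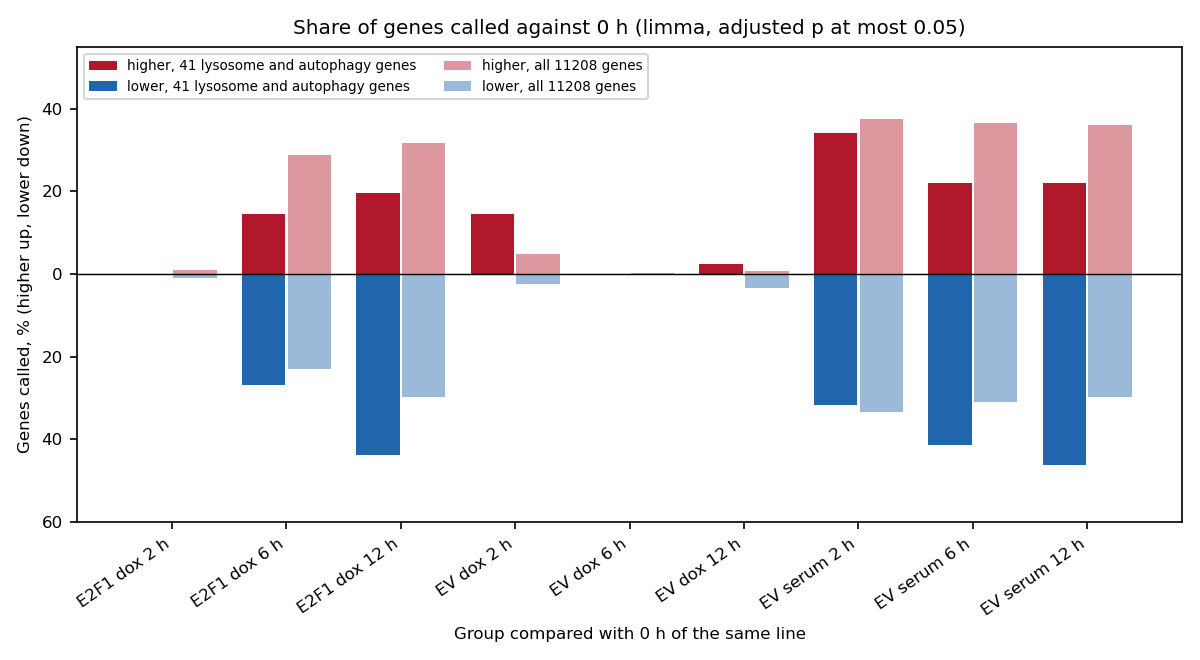
Bars give the percentage of genes called higher (upward) or lower (downward) against 0 h of the same line, for the 41 genes (dark) and all 11208 genes (pale). For the E2F1 12 h group and for serum at 6 and 12 h the dark bars are shorter than the pale ones upward and longer downward.

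The 41 genes together made up a smaller share of the library total after either stimulus. They held 0.6896% and 0.6663% of the normalized counts at 0 h in the E2F1 line, 0.5963% and 0.5865% at 6 h and 0.5434% and 0.5485% at 12 h. In the EV line they held 0.7086% and 0.7003% at 0 h and 0.7728% and 0.7482% after 12 h of doxycycline, but 0.5949% and 0.6195% after 2 h of serum and 0.5351% and 0.5315% after 12 h. The 6 h and 12 h E2F1 libraries and all serum libraries lay below every 0 h library. A share also depends on the library total. In the EV line the totals were 45073651 and 46057140 at 2 h of serum, against 34680926 and 35600629 at 0 h. The smaller share at 2 h of serum is therefore not by itself a fall in the members' counts. Abundant genes such as Psap and Ctsl weigh most in this sum. In bulk RNA, fewer cells in a given state and less RNA per cell cannot be told apart.

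The transcription factors of the TFEB family changed in different ways. Tfeb (chr17:47737030-47792419) had 664 and 687 normalized counts in the EV line at 0 h, then 342 and 381 after 2 h of serum, 276 and 224 after 6 h and 216 and 324 after 12 h. Every serum library lay below every EV doxycycline library, and Tfeb fell, with changes of -0.90 ± 0.16, -1.44 ± 0.16 and -1.35 ± 0.16 at the 3 times (limma adjusted p = 8.29e-05, 4.45e-07 and 1.21e-06). In the E2F1 line the values were 539 and 654 at 0 h, 870 and 885 at 6 h, and 667 and 584 at 12 h. The rise at 6 h was 0.56 ± 0.16 (limma adjusted p = 0.0084). Without E2F1 0 h replicate 1 it was 0.4235 (adjusted p = 0.0975). Set against doxycycline in the EV line the 6 h difference was 0.56 ± 0.23, with no call (limma adjusted p = 0.0696). At 12 h the change against 0 h within the E2F1 line was 0.07 ± 0.16, with no call.

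Tfe3 (chrX:7762560-7775202), which binds the same element, fell in the E2F1 line. It had 3572 and 3400 normalized counts at 0 h in the E2F1 line, 2252 and 2325 at 6 h, and 1926 and 1947 at 12 h. The changes were -0.61 ± 0.07 and -0.85 ± 0.07 (limma adjusted p = 1.49e-06 and 1.71e-08), with no overlap of libraries. The EV line had 3890 and 3883 after 2 h of doxycycline. In serum the values were 4013 and 3733 at 2 h, 3405 and 3359 at 6 h, and 2663 and 2850 at 12 h, against 3186 and 3062 at 0 h. The difference was 0.31 ± 0.07 at 2 h, with the opposite sign under both other scalings, and -0.18 ± 0.07 at 12 h, a call that ended without EV 0 h replicate 1 (-0.1524, adjusted p = 0.156), EV 0 h replicate 2 (-0.2097, adjusted p = 0.051) or serum 12 h replicate 1 (-0.1321, adjusted p = 0.214). Mitf, the least abundant of the family, had 379 and 372 at 0 h and 646 and 545 at 12 h in the E2F1 line (0.66 ± 0.24, limma adjusted p = 0.0223). That call ended without E2F1 12 h replicate 1 (0.5363), E2F1 0 h replicate 1 (0.6722) or E2F1 0 h replicate 2 (0.6453). In serum Mitf had 252 and 216 at 6 h and 288 and 357 at 12 h, against 264 and 450 at 0 h in the EV line. It was called lower at 6 h, a call that did not hold under every alternative, and was not called at 12 h.

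Among lysosomal membrane proteins, Mcoln1, the calcium channel TRPML1 through which lysosomes release calcium, rose late in the E2F1 line. It had 1361 and 1398 normalized counts at 0 h, 1567 and 1540 at 6 h and 2337 and 2112 at 12 h. The rise at 12 h was 0.69 ± 0.09 (limma adjusted p = 2.13e-06), and at 2 h of serum the values were 1030 and 1181 against 1368 and 1308 at 0 h. Its values were selected for display after they were seen, because its promoter window holds the CLEAR core.

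Lamp2, which forms the lysosomal coat with LAMP1 and is needed for autophagosome fusion, fell in both settings. It had 11878 and 12778 normalized counts at 0 h and 8137 and 8409 at 12 h in the E2F1 line (-0.57 ± 0.07, limma adjusted p = 3.08e-06). In serum at 12 h it had 9005 and 9035, against 11647 and 11988 at 0 h (-0.39 ± 0.07, limma adjusted p = 0.000182). Lamp1 was not called in the E2F1 line, with 13206 and 13245 at 0 h and 14907 and 15057 at 12 h (0.18 ± 0.09, limma adjusted p = 0.0833), though without the doxycycline 2 h libraries that difference passed (0.1799, adjusted p = 0.0496). In serum it had 14285 and 15329 at 2 h and 12217 and 13185 at 12 h, against 11952 and 12466 at 0 h. The 2 h difference of 0.28 passed as deposited but was -0.2457 under quantile normalization and -0.09707 under equal totals. It was not called without EV 0 h replicate 1 (0.2474, adjusted p = 0.0536) or serum 2 h replicate 2 (0.2269, adjusted p = 0.0794). Npc1 was called in none of the comparisons with 0 h.

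Of the 6 lysosomal proteases, 4 fell and 2 (Ctsa and Ctsz) rose in the E2F1 line at 12 h (all genes: 29.7% and 31.8%), and 5 fell and none rose in serum at 12 h (29.7% and 36%). The rise of Ctsz, a carboxypeptidase, was 0.21 and ended under quantile normalization (0.05277, adjusted p = 0.571), under equal totals (0.1505, adjusted p = 0.0999) and with only the groups compared (0.2087, adjusted p = 0.0635). It also ended without E2F1 0 h replicate 1 (0.2074, adjusted p = 0.0863), E2F1 0 h replicate 2 (0.2099, adjusted p = 0.0852) or E2F1 12 h replicate 2 (0.1199, adjusted p = 0.276). Cathepsin D (Ctsd), an aspartic protease, had 13272 and 13952 normalized counts at 0 h, 11856 and 12264 at 6 h, and 7556 and 8883 at 12 h in the E2F1 line. The change at 12 h was -0.73 ± 0.13 (limma adjusted p = 6.35e-05). Serum libraries had 15986 and 17461 at 2 h, 13131 and 9954 at 6 h and 9286 and 8292 at 12 h, against 14817 and 13516 at 0 h. The change at 12 h was -0.69 ± 0.13 (limma adjusted p = 0.000104).

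Cathepsin L (Ctsl), a cysteine protease, had 24813 and 21484 normalized counts at 0 h and 17692 and 16120 at 12 h in the E2F1 line. Serum libraries had 36823 and 34958 at 2 h and 23111 and 20214 at 12 h. Its changes of -0.45 ± 0.15 and -0.57 ± 0.15 at 12 h passed (limma adjusted p = 0.0162 and 0.00318) but each was lost when 1 library was left out. Without E2F1 0 h replicate 1 the first was -0.3473 (adjusted p = 0.13), without E2F1 12 h replicate 2 it was -0.3841 (adjusted p = 0.0986), and without EV 0 h replicate 2 the second was -0.2745 (adjusted p = 0.11).

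Ctsa, the protective protein of β-galactosidase and neuraminidase, rose in the E2F1 line and fell in serum at 12 h. It had 4011 and 4252 normalized counts at 0 h and 5283 and 5567 at 12 h in the E2F1 line (0.39 ± 0.09, limma adjusted p = 0.00122), a rise that under quantile normalization was 0.1992 (adjusted p = 0.0628). The EV line had 4685 and 5001 after 12 h of doxycycline against 4499 and 4134 at 0 h, and the E2F1 change minus the EV change was 0.23 ± 0.13, with no call (limma adjusted p = 0.157). In serum it had 3249 and 3132 at 12 h against 4499 and 4134 (-0.43 ± 0.09, limma adjusted p = 0.000453). The peptidase Tpp1 was lower in serum at 12 h, with 2315 and 2332 against 4490 and 3982 at 0 h (-0.86 ± 0.09, limma adjusted p = 2.43e-07). Ctsb, another cysteine protease, fell on both routes at 12 h, with changes of -0.33 and -0.21. The serum call ended without EV 0 h replicate 1 (-0.2109, adjusted p = 0.0701), EV 0 h replicate 2 (-0.2097, adjusted p = 0.0668) or serum 12 h replicate 2 (-0.1646, adjusted p = 0.147).

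Of the glycosidases, Gla rose more in the E2F1 line than any other member, both at 6 h and at 12 h. Gla (chrX:134588149-134601125), the α-galactosidase A that is deficient in Fabry disease, had 579 and 482 normalized counts at 0 h, 572 and 817 at 2 h, 937 and 993 at 6 h, and 1042 and 1007 at 12 h. The 6 h and 12 h libraries lay above every other library of the line. The rise was 0.87 ± 0.18 at 6 h and 0.95 ± 0.18 at 12 h (limma adjusted p = 0.000661 and 0.000182). In the EV line Gla had 347 and 384 at 0 h, 354 and 279 after 12 h of doxycycline and 600 and 461 after 12 h of serum. The serum rise of 0.53 ± 0.18 ended without EV 0 h replicate 1 (0.4528, adjusted p = 0.0961) or serum 12 h replicate 1 (0.3359, adjusted p = 0.192).

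Gusb, β-glucuronidase, rose at 12 h of serum. It had 1580 and 1609 normalized counts at 0 h, 1642 and 1733 at 2 h, 1638 and 1385 at 6 h and 2954 and 2570 at 12 h (0.79 ± 0.10, limma adjusted p = 1.07e-06). The E2F1 12 h libraries had 1491 and 1566 against 1787 and 1648, with no call. Gaa, the acid α-glucosidase that breaks down lysosomal glycogen, fell in the E2F1 line from 8941 and 8205 to 4753 and 5122 at 12 h (-0.80 ± 0.13, limma adjusted p = 4.19e-05). The sialidase Neu1 had 718 and 666 at 2 h of serum against 1221 and 932 at 0 h (-0.62 ± 0.15, limma adjusted p = 0.000844).

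The remaining soluble lysosomal proteins differed by route. Grn, progranulin, a secreted and lysosomal growth factor, had 8517 and 7284 normalized counts in the EV line at 0 h, 5847 and 5937 after 2 h of serum, 3847 and 3567 after 6 h and 4194 and 3849 after 12 h. The changes were -1.09 ± 0.09 at 6 h and -0.97 ± 0.09 at 12 h (limma adjusted p = 6.2e-09 and 3.92e-08). Its E2F1 line values were 7346 and 7586 at 0 h and 7669 and 8455 at 12 h, with no call. Npc2, the soluble cholesterol carrier, fell in the E2F1 line at 12 h, from 14666 and 15101 to 9643 and 11610 (-0.49 ± 0.09, limma adjusted p = 0.000185). Serum libraries had 21185 and 22387 at 2 h, a difference of 0.37 whose sign changed under both other scalings. Psap fell in serum at 12 h to 30292 and 31885 (-0.46 ± 0.10, limma adjusted p = 0.000545) and was not called in the E2F1 line.

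All 3 genes of the proton pump were called higher at 2 h of serum (37.5% of all genes were). However, Atp6v0d1 changed sign under quantile normalization and equal totals, and Atp6ap1 was not called under quantile normalization (0.1549, adjusted p = 0.0867). After 2 h of doxycycline in the EV line, Atp6v1h (2445 and 2634) and Atp6ap1 (5296 and 6082) were also called higher, though neither call held under every alternative. Serum was not tested against doxycycline at 2 h. The V-ATPase acidifies the lysosome, and Atp6v1h encodes the H subunit of its cytosolic part. Atp6v1h had 1799 and 2202 normalized counts in the EV line at 0 h, 4408 and 4624 after 2 h of serum, 3900 and 3804 after 6 h and 3185 and 3323 after 12 h. All 6 serum libraries exceeded every other library of the study. It rose by 1.18 ± 0.10, 0.95 ± 0.10 and 0.71 ± 0.10 (limma adjusted p = 4.5e-09, 1.14e-07 and 5.37e-06). Its E2F1 line values were 2234 and 2026 at 0 h and 2287 and 2011 at 12 h.

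Atp6ap1, the accessory subunit of the pump, was the one member that rose in serum and fell after E2F1 at 12 h. In serum it had 6837 and 6894 normalized counts at 2 h and 6792 and 6355 at 12 h, against 4766 and 4361 at 0 h (0.53 ± 0.08 for 12 h, limma adjusted p = 1.75e-05). Its E2F1 line values were 5660 and 5476 at 0 h and 4147 and 4042 at 12 h (-0.44 ± 0.08, limma adjusted p = 0.000123). Atp6v0d1, of the membrane part, had 2630 and 2962 at 0 h and 2403 and 2405 at 12 h in the E2F1 line, with no call. Its difference of 0.23 at 2 h of serum changed sign under both other scalings and was not called when any of the 4 libraries was left out (0.2205 to 0.2376).

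Of the autophagy receptor and the ATG8 proteins, 4 of 5 fell in the E2F1 line at 12 h and none rose (all genes: 29.7% and 31.8%). Gabarapl1 (chr6:129533160-129542346), an ATG8 protein of the GABARAP subfamily, had 4049 and 3581 normalized counts at 0 h, 4234 and 4349 at 2 h, 2707 and 2195 at 6 h, and 1996 and 1730 at 12 h. The changes were -0.64 ± 0.11 at 6 h and -1.03 ± 0.11 at 12 h (limma adjusted p = 0.000119 and 3.51e-07), the deepest fall of any member in that line. Serum libraries had 2593 and 3012 at 2 h, 3364 and 3410 at 6 h and 3564 and 3828 at 12 h, against 3975 and 3485 at 0 h. The call at 2 h of serum (-0.41 ± 0.11) ended without serum 2 h replicate 1 (-0.3052, adjusted p = 0.0565), and at 12 h the groups overlapped.

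The LC3 genes diverged in serum. Map1lc3b (chr8:121590361-121598760), the LC3 form most used as an autophagosome marker, had 6891 and 6481 normalized counts in the EV line at 0 h, 3119 and 3261 after 2 h of serum, 2604 and 2662 after 6 h and 2765 and 2836 after 12 h. The changes were -1.07, -1.34 and -1.25, each ± 0.09 (limma adjusted p = 4.8e-09, 3.92e-10 and 1.66e-09). Map1lc3a had 2465 and 2538 at 0 h but 5242 and 4638, 4565 and 5166, and 3179 and 3786 at the same times. It rose by 0.98, 0.96 and 0.47, each ± 0.11 (limma adjusted p = 2.28e-07, 4.17e-07 and 0.000992). No serum library of either gene overlapped the EV 0 h libraries. In the E2F1 line Map1lc3b fell from 5563 and 5234 to 3802 and 4322 at 6 h and 2542 and 3008 at 12 h (-0.96 ± 0.09 at 12 h, limma adjusted p = 4.55e-08), and Map1lc3a had 2361 and 2500 at 0 h and 2018 and 2292 at 12 h, with no call.

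Sqstm1 (chr11:50199366-50210827), the receptor p62 that carries ubiquitinated cargo to LC3, rose and then fell in serum. It had 15549 and 14858 normalized counts at 0 h, 23918 and 29297 at 2 h, 13418 and 16682 at 6 h, and 6974 and 6947 at 12 h. The rise at 2 h was 0.80 ± 0.14 and the change at 12 h was -1.13 ± 0.14 (limma adjusted p = 6.47e-05 and 1.9e-06). Under quantile normalization the 2 h difference was 0.2657 (adjusted p = 0.0792). Between 2 h and 12 h of serum it fell by 1.93 ± 0.14 (limma adjusted p = 2.2e-09), the deepest fall among the 41. In that comparison 8 members rose and 20 fell (all genes: 31.7% higher, 31.7% lower), and with equal totals 14 rose and 9 fell, which reverses the balance. Equal totals moved the median change of all genes by 0.293 there. Sqstm1 in the E2F1 line had 16993 and 14288 at 0 h, 16984 and 19408 at 2 h, 14188 and 11994 at 6 h, and 9234 and 8450 at 12 h (-0.82 ± 0.14 at 12 h, limma adjusted p = 7.7e-05). The EV doxycycline 2 h libraries also had high values, 22529 and 27547.

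**Figure D3:**
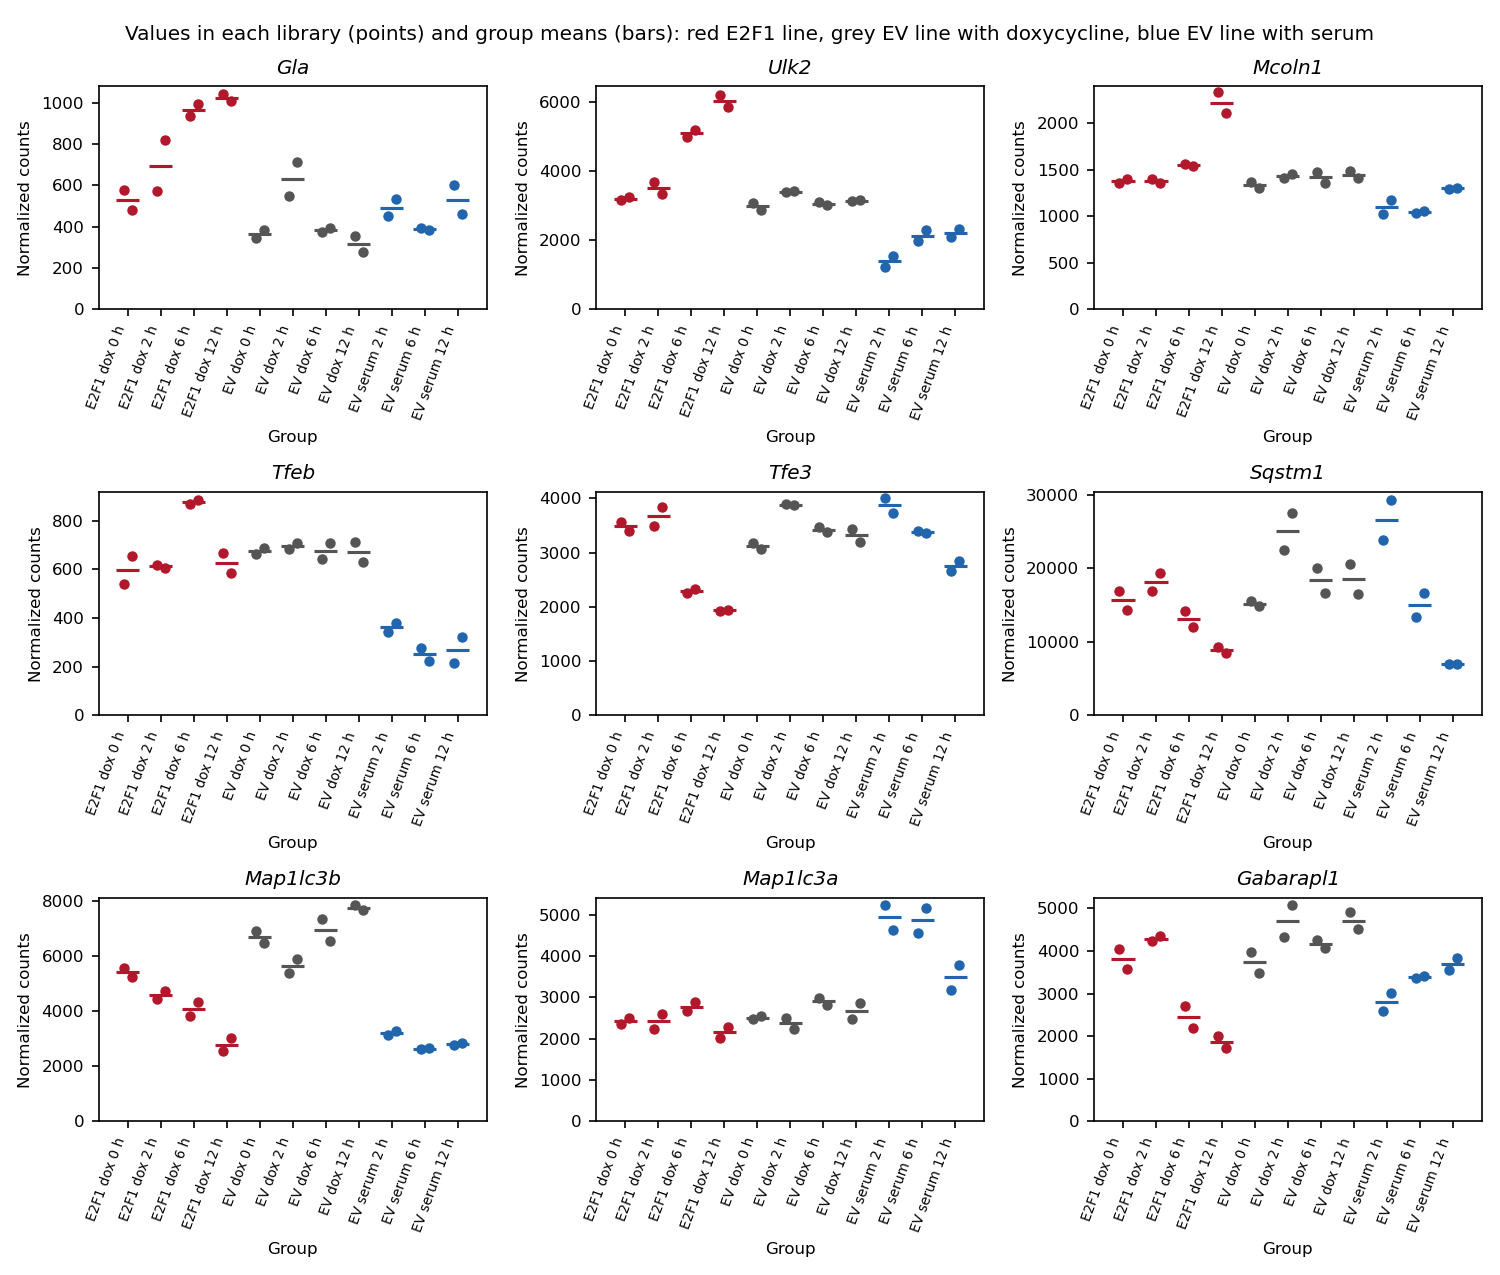
Points are the normalized counts of 9 genes in each library and bars the group means, from 0 on a linear axis, by group. Gla and Ulk2 climb in the E2F1 line, Gabarapl1 and Tfe3 decline there, Tfeb and Map1lc3b drop in serum, Map1lc3a is higher in serum, and Sqstm1 is high at 2 h of serum and low at 12 h.

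The ULK kinases, which start autophagosome formation, gave opposite results for Ulk2 in the 2 settings. Ulk2 (chr11:61775649-61855073) had 3170 and 3253 normalized counts at 0 h in the E2F1 line, 3704 and 3343 at 2 h, 5006 and 5212 at 6 h and 6224 and 5878 at 12 h. It rose by 0.67 ± 0.10 at 6 h and 0.91 ± 0.10 at 12 h (limma adjusted p = 1.71e-05 and 2.87e-07). Serum libraries had 1230 and 1551 at 2 h, 1983 and 2292 at 6 h and 2109 and 2319 at 12 h, against 3076 and 2891 at 0 h. The changes were -1.11 ± 0.10 at 2 h and -0.43 ± 0.10 at 12 h (limma adjusted p = 9.86e-09 and 0.000836), and every serum library lay below every other library of the study.

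Ulk1 fell in both settings. In serum it had 1434 and 1438 normalized counts at 2 h and 1871 and 2002 at 12 h, against 2916 and 2298 at 0 h (-0.85 ± 0.10 at 2 h, limma adjusted p = 2.62e-07). The E2F1 line had 2505 and 2625 at 0 h and 2108 and 2019 at 12 h (-0.31 ± 0.10, limma adjusted p = 0.00853). That call ended without E2F1 0 h replicate 2 (-0.2799, adjusted p = 0.0602) or E2F1 12 h replicate 2 (-0.2826, adjusted p = 0.0546).

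In the PI3-kinase complex, Atg14, the subunit that directs it to autophagosome formation, fell on both routes. In serum it had 375 and 288 normalized counts at 2 h, 245 and 296 at 6 h and 281 and 275 at 12 h, against 530 and 589 at 0 h (-1.0 ± 0.16 at 12 h, limma adjusted p = 1.94e-05). Its E2F1 line values were 463 and 496 at 0 h, 276 and 318 at 6 h and 334 and 365 at 12 h. The change was -0.69 ± 0.16 at 6 h (limma adjusted p = 0.00125). At 12 h it was -0.46 ± 0.16 (limma adjusted p = 0.0169) and not called without E2F1 0 h replicate 2 (-0.4061, adjusted p = 0.0928) or E2F1 12 h replicate 1 (-0.3918, adjusted p = 0.101). Neither E2F1 line change of Atg14, at 6 h or at 12 h, was called when set against doxycycline in the EV line. Becn1, which encodes Beclin 1, had 1697 and 1562 at 0 h and 1666 and 1556 at 12 h in the E2F1 line. The serum values were 1971 and 2161 at 2 h and 1851 and 1904 at 12 h, against 1652 and 1555. Its difference of 0.36 at 2 h of serum was 0.1745 under quantile normalization (adjusted p = 0.112) and -0.01008 under equal totals.

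Genes for lipid supply and for reading PI3P fell or were not called, apart from Wipi2 in serum. Atg2a, which transfers lipid to the growing membrane, had 3057 and 2504 normalized counts in the EV line at 0 h, 1290 and 1155 after 2 h of serum and 1670 and 1728 after 12 h (-1.18 ± 0.10 at 2 h, limma adjusted p = 8.17e-09). The E2F1 line had 2576 and 3136 at 0 h, 1755 and 1942 at 6 h and 1967 and 1788 at 12 h (-0.60 ± 0.10 at 12 h, limma adjusted p = 6.21e-05). Wipi1, which binds PI3P, had 1190 and 1173 at 2 h of serum against 3043 and 2406 (-1.19 ± 0.16, limma adjusted p = 2.18e-06). The E2F1 line had 2644 and 2662 at 0 h and 1375 and 1591 at 12 h (-0.84 ± 0.16, limma adjusted p = 0.00017). Atg9a, the vesicle scramblase, had 608 and 616 at 2 h of serum against 1007 and 845 (-0.59 ± 0.12, limma adjusted p = 0.000296). Wipi2 had 6541 and 6442 at 2 h of serum against 5146 and 4664, a difference of 0.41 that was -0.02164 under quantile normalization.

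Genes of ATG8 processing and conjugation rose or were not called. Atg5, part of the enzyme that attaches ATG8 proteins to lipid, had 999 and 916 normalized counts at 0 h in the E2F1 line, 928 and 991 at 2 h, 1690 and 1688 at 6 h and 1613 and 1552 at 12 h. It rose by 0.82 ± 0.12 at 6 h and 0.73 ± 0.12 at 12 h (limma adjusted p = 1.35e-05 and 3.45e-05). The serum values were 1283 and 1234 at 12 h against 902 and 984 at 0 h (0.42 ± 0.12, limma adjusted p = 0.00457). Its partner Atg16l1 had 2127 and 2578 at 2 h of serum, 1774 and 1637 at 6 h and 1333 and 1055 at 12 h, against 845 and 935 at 0 h. It rose by 1.40 ± 0.15 at 2 h (limma adjusted p = 9.33e-08), the largest rise of a member in any comparison with 0 h. At 12 h the rise of 0.42 ended without EV 0 h replicate 1 (0.3426, adjusted p = 0.113) or serum 12 h replicate 1 (0.247, adjusted p = 0.224). The E2F1 line had 1143 and 1047 at 0 h and 1247 and 983 at 12 h. The protease Atg4b had 1688 and 1661 at 0 h and 2411 and 2332 at 6 h in the E2F1 line (0.50 ± 0.08, limma adjusted p = 4.09e-05). At 12 h it had 1931 and 1980 (0.22, limma adjusted p = 0.0205). That 12 h call ended under quantile normalization, under equal totals, with only the groups compared, and when any library of the comparison was left out. Atg7 was called in none of the comparisons with 0 h.

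At 12 h the routes were set side by side, using no library in common. In total, 13 members fell in both (Lamp2, Ctsb, Ctsd, Ctsl, Tpp1, Gaa, Tfe3, Sqstm1, Map1lc3b, Ulk1, Atg14, Atg2a and Wipi1) and 3 rose in both (Gla, Atg4b and Atg5). The 13 are 31.7% of the 41 and the 3 are 7.32%, where 15.3% of all genes fell on both routes and 19.0% rose on both. They make 13 of the 18 falls in the E2F1 line and 13 of the 19 in serum. Over all genes, 1711 fell on both routes, of 3329 that fell in the E2F1 line and 3328 that fell in serum. Ctsa and Ulk2 rose in the E2F1 line and fell in serum, and Atp6ap1 did the opposite (all genes: 3.52% and 5.69%). Pearson's r between the changes was 0.368 over the 41 members and 0.455 over all 11208 genes at 12 h, and 0.159 and 0.197 at 6 h. These are descriptions across genes, which are not independent replicates and share the table's scaling. Of the called members, 17 of 26 in the E2F1 line and 19 of 28 in serum kept their call under every alternative tried. Those that did so on both routes were Lamp2, Ctsd, Sqstm1, Map1lc3b, Atg2a and Wipi1 (lower on both), Atg5 (higher on both), and Ulk2 and Atp6ap1 (opposite directions).

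The difference between the E2F1 and serum changes was also tested. At 12 h, 8 members had the higher change in the E2F1 line and 9 the lower one (all genes: 25% and 23.8%), and at 6 h 12 and 10 (30.3% and 27.6%, or 17 and 8 members under equal totals). Equal totals moved the median of all genes in this 6 h difference by 0.0972. The widest differences at 12 h were Tfeb at 1.42 ± 0.23 and Ulk2 at 1.34 ± 0.14 on the higher side (limma adjusted p = 7.24e-05 and 4.58e-07). On the lower side they were Gabarapl1 at -1.02 ± 0.16, Atp6ap1 at -0.97 ± 0.11 and Gusb at -0.96 ± 0.13 (limma adjusted p = 4.22e-05, 2.14e-06 and 1.51e-05). Tfeb differed by 2.00 ± 0.23 at 6 h (limma adjusted p = 9.67e-07).

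**Figure D4:**
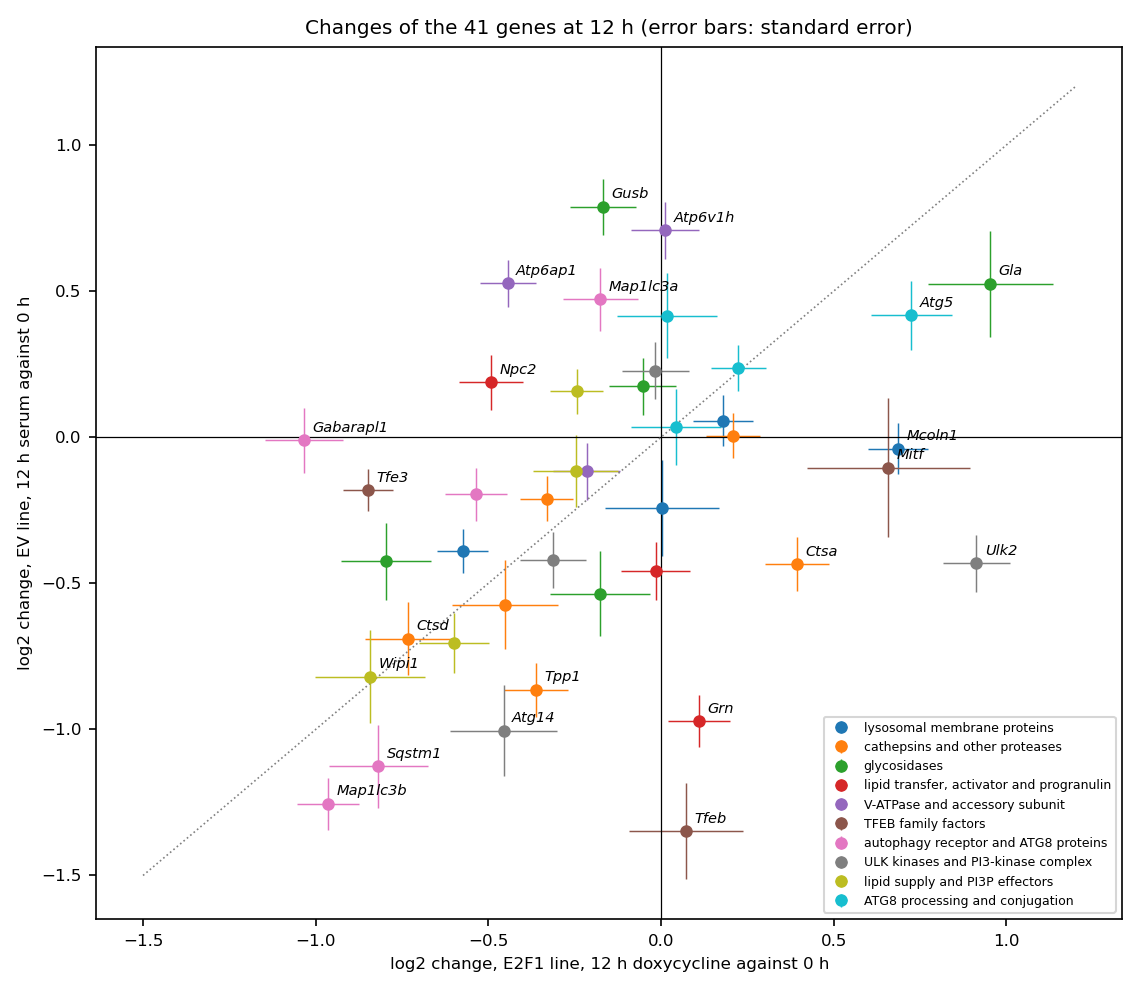
Each point is 1 of the 41 genes, with its log2 change after 12 h of doxycycline in the E2F1 line (horizontal) and after 12 h of serum in the EV line (vertical); bars are standard errors and the dotted line marks equal change. Sqstm1, Map1lc3b, Ctsd and Wipi1 lie low on both axes, Ulk2 and Ctsa lower right, Atp6ap1 upper left, and Tfeb at the bottom, near 0 on the horizontal axis.

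The E2F1 line was also set against the EV line in the same doxycycline. The E2F1 change minus the EV change at 12 h was higher for 5 members and lower for 16 (all genes: 27.3% and 23.3%), with a median of -0.26. At 6 h it was higher for 4 and lower for 6 (22.2% and 12.3%). Quantile normalization gave 4 and 15 there, and equal totals 4 and 12. These scalings moved the median of all genes in that difference by -0.105 and -0.108. Of the members called in the E2F1 line at 6 h, Ctsa and Tfeb (higher) and Tpp1, Gusb, Hexa, Atp6ap1 and Atg14 (lower) were not called in this 6 h difference. At 12 h the widest above were Gla at 1.17 ± 0.26, Mitf at 0.85 ± 0.34 and Ulk2 at 0.84 ± 0.14 (limma adjusted p = 0.00097, 0.0422 and 6.93e-05). The Mitf call ended under both other scalings (0.7641 and 0.7836, adjusted p = 0.0612 and 0.0575), with only the groups compared (adjusted p = 0.0535), and without the doxycycline 2 h libraries (adjusted p = 0.057). It also ended without E2F1 0 h replicate 1 (0.8646), E2F1 0 h replicate 2 (0.8378), E2F1 12 h replicate 1 (0.7288), EV 0 h replicate 2 (0.4676) or EV doxycycline 12 h replicate 1 (0.687). Below were Gabarapl1 at -1.37 ± 0.16, Map1lc3b at -1.18 ± 0.13 and Sqstm1 at -1.09 ± 0.20 (limma adjusted p = 1.29e-06, 5.36e-07 and 0.000206). Of the 8 members that rose in the E2F1 line at 12 h, Ctsa, Ctsz and Atg4b were not called in this difference, nor were Ctsl and Atg14 of the 18 that fell. Of the 21, 17 kept their call under every alternative tried.

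Within the EV line, serum was also set against doxycycline at equal times. At 6 h, 8 members were higher and 18 lower in serum (all genes: 35.8% and 30%), and at 12 h 7 were higher and 21 lower (37.9% and 32.5%). Equal totals gave 3 and 25, then 6 and 24, and moved the median of all genes by -0.206, then -0.0909. At 0 h the lines themselves differed in 6 members, 2 higher and 4 lower in the E2F1 line (all genes: 8.86% and 6.17%). They were Atg4b and Atp6ap1 (higher) and Ctsl, Tpp1, Map1lc3b and Ctsz (lower), with differences between -0.48 and 0.33. None of these 6 calls held under every alternative. The count was 0 without E2F1 0 h replicate 1, 2 without E2F1 0 h replicate 2 and 3 without EV 0 h replicate 1.

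The promoter letters were read against these changes. Of the 5 genes with a CLEAR core, Mcoln1, Gla and Ctsa rose in the E2F1 line at 12 h, Ctsd fell and Atp6v0d1 was not called. In serum at 12 h Gla rose, Ctsa and Ctsd fell, and the others were not called. Of the 3 genes with an E2F motif, Atg14 fell in the E2F1 line at 12 h, and Atg7 (1009 and 1110 normalized counts against 962 and 1096) and Atp6v0d1 were not called. Called genes with a CLEAR core thus went both ways, and for the E2F motif a single called gene gives no comparison.

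A wider list of lysosome and autophagy genes outside the 42 was followed as well, and 103 of its 113 genes were in the table. At 12 h in the E2F1 line, 21 rose and 36 fell (median -0.15; all genes: 31.8% and 29.7%), and in serum at 12 h 14 rose and 39 fell (median -0.13; all genes: 36% and 29.7%). Set against those shares, of 25 other lysosomal hydrolases 1 rose and 14 fell in serum at 12 h, and 4 rose and 8 fell in the E2F1 line, where the share that fell was near that of all genes. Of 27 other genes of the autophagy machinery, 4 rose and 12 fell in the E2F1 line at 12 h, and 4 rose and 9 fell in serum. Of 10 genes of the Ragulator, Rag and folliculin complexes, which tie mTORC1 to the lysosome, 5 rose and none fell at 2 h of serum (all genes: 37.5% and 33.5%), but 4 rose and 2 fell under quantile normalization and 3 rose and 5 fell under equal totals. Of the 13 other V-ATPase subunits, 3 rose and 5 fell in serum at 12 h.

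At 12 h, the 3 genes of that list with the largest rises and falls on each route were looked at, and each kept its call under every alternative that tested it (a mean of at least 500 left out Galc and Optn). Optn, encoding the receptor optineurin, had 67 and 106 normalized counts at 0 h in the E2F1 line, 295 and 306 at 6 h and 235 and 246 at 12 h (1.5 ± 0.27 at 12 h, limma adjusted p = 0.00011). The EV line had 137 and 124 at 0 h and 239 and 185 after 12 h of doxycycline, which overlaps the E2F1 12 h values, and the E2F1 change minus the EV change was 0.82 ± 0.38, with no call (limma adjusted p = 0.0854). Retreg1, an ER-phagy receptor, had 425 and 363 at 0 h, 1313 and 1025 at 6 h and 886 and 840 at 12 h (1.13 ± 0.15, limma adjusted p = 3.98e-06), but 321 and 367 after 12 h of serum against 620 and 658. Galc, galactosylceramidase, rose in the E2F1 line from 337 and 291 to 721 and 650 and in serum from 241 and 301 to 653 and 518 at 12 h (1.13 ± 0.16 and 1.11 ± 0.16, limma adjusted p = 1.12e-05 and 1.19e-05).

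Calcoco1, another ER-phagy receptor, fell most of that list in the E2F1 line, from 3741 and 4079 normalized counts to 1239 and 1392 at 12 h (-1.57 ± 0.12, limma adjusted p = 5.76e-09). Serum took it from 5004 and 4165 to 650 and 733 (-2.72 ± 0.12, limma adjusted p = 1.49e-11). The V-ATPase subunit gene Atp6v0a1 fell from 3611 and 3848 to 1717 and 1604 in the E2F1 line (-1.17 ± 0.10, limma adjusted p = 2.97e-08), and Tecpr1, a tethering factor, from 1881 and 1703 to 742 and 877 (-1.15 ± 0.10, limma adjusted p = 3.53e-08).

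Of 6 genes that sort hydrolases to the lysosome, 2 rose (Gnptab and M6pr) and 2 fell in serum at 12 h (all genes: 36% and 29.7%), and the 3 described here are among the largest changes of the wider list, by which they were chosen. Sort1, sortilin, had 2067 and 1467 normalized counts at 0 h and 183 and 168 after 12 h of serum (-3.30 ± 0.20, limma adjusted p = 2.81e-10). Gnptab, which makes the mannose 6-phosphate tag, rose from 1621 and 1749 to 3611 and 4164 (1.2 ± 0.11, limma adjusted p = 3.28e-08), and the receptor gene M6pr from 4658 and 4864 to 10944 and 9060 (1.06 ± 0.09, limma adjusted p = 6.82e-09). Epg5, a tether for fusion with lysosomes, fell from 4906 and 5892 to 1659 and 1636 (-1.71 ± 0.14, limma adjusted p = 1.24e-08). Sort1 and Calcoco1 are also the genes of either list that the authors' deposited tables of serum changes hold, at 6 h and 12 h. Those tables hold genes with an absolute log2 change of 2.0 or more, and none of the 41 members is in any of the 9 authors' deposited tables.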

How the data were processed

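Per the labels' protocols, polyadenylated RNA of 22 samples was read from both ends at 150 bp. The submitters' processing notes name FastQC, Trimmomatic, HISAT2, featureCounts, DESeq2 and mm10, without versions or settings. The authors deposited normalized counts rounded to whole numbers, which were treated as a score and not as raw counts. Their 9 comparison tables give a log2 fold change and a p-value per gene as deposited by the authors, and served only to look up which genes they list. Precision is limited by 2 libraries per group. Raw depth is not known from these values.

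Groups and replicate numbers came from the labels. Values were analysed as log2(value + 1) in limma 3.58.1 (R 4.3.3), with 11 group means, 11 residual degrees of freedom, a mean-variance trend and Benjamini-Hochberg adjustment over 11208 genes, at a threshold of 0.05; the fit was tested on simulated data. No filter was applied. A fold change on this scale understates that of low genes. Alternatives were a pseudocount of 8, a mean of at least 500, quantile normalization, equal totals, only the groups compared, a block for the replicate number, each library left out in turn, and no doxycycline 2 h libraries.

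The members, lists and tests were chosen with earlier results of these data known. Every member could be named. Values in each library were to be shown for up to 3 members of largest rise and fall at E2F1 6 h and 12 h and serum 2 h and 12 h, for Lamp1, Ctsd, Ctsl, Tfeb, Sqstm1, Map1lc3b, Ulk1 and Becn1, and for up to 3 rises and falls of other pathway genes at 12 h. Values in each library of further members were added after they were seen. Positions are from GRCm38 (mm10) with GENCODE M21, in which 39 of 41 members had the identifier version of the table; promoter windows are from RefSeq. Tables and figures were made in Python 3.11.15 (pandas 2.3.3, numpy 2.4.6, matplotlib 3.10.9). ATAC-seq and ChIP-seq of the study were not analysed here.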

Additional observations from a re-analysis of the deposited data

Results flagged for a closer look

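The following changes differed between the lines or stimuli by a test of the difference itself (limma, interaction of line or stimulus with time, adjusted over all genes), and are given as values only. For the change after 12 h of doxycycline in the E2F1 line minus that in the EV line, the log2 difference was above 0 for Gla (1.169), Ulk2 (0.8361) and Atg5 (0.5862). It was below 0 for Gabarapl1 (-1.374), Map1lc3b (-1.178), Sqstm1 (-1.095), Tfe3 (-0.9345), Wipi1 (-0.9257), Ctsd (-0.8909), Atg2a (-0.7562), Ulk1 (-0.735) and Atp6ap1 (-0.5813). The list is not complete. Mcoln1 (above 0) and Lamp2, Ctsb, Gaa and Npc2 (below 0) were also called in this difference and kept their call under every alternative.

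For the change after 12 h in the E2F1 line minus that after 12 h of serum in the EV line, it was above 0 for Tfeb (1.421), Ulk2 (1.344) and Atg14 (0.5488). It was below 0 for Gabarapl1 (-1.024), Atp6ap1 (-0.9703), Gusb (-0.9561), Atp6v1h (-0.6971), Tfe3 (-0.6663) and Map1lc3a (-0.6476). This list is not complete either. Mcoln1, Ctsa, Tpp1, Psap and Grn (above 0) and Npc2 and Wipi2 (below 0) were also called and kept their call under every alternative. The Atg14 difference passed narrowly (adjusted p = 0.0472) and was not called under quantile normalization, with the replicate block (adjusted p = 0.0505), with only the groups compared, without the doxycycline 2 h libraries, or when any library of the comparison was left out.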

How the results depend on the processing

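Of 193 changes of single genes followed under all alternatives, 189 were called and 118 of these kept direction and call throughout. A pseudocount of 8 and a mean of at least 500 ended no call. The count of members called in the E2F1 line at 6 h went from 17 to 26 under quantile normalization and ranged from 10 to 14 when a library was left out. The E2F1 minus EV difference at 6 h went from 10 members to 19 under quantile normalization and 16 under equal totals. With only the groups compared, EV doxycycline 2 h went from 6 to 2, EV doxycycline 12 h from 1 to 0 and the lines at 0 h from 6 to 0. Left-out libraries gave 0 to 4, 0 to 3 and 0 to 4 there. The cause was not tested, though a fit to fewer groups also has fewer residual degrees of freedom. A lone library left in a group was assumed to vary like the other groups.

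Signs changed under scaling for serum at 2 h, as quantile normalization then equal totals: Lamp1 -0.2457 and -0.09707, Npc2 -0.1806 and -0.006974, Atp6v0d1 -0.05622 and -0.1457, Tfe3 -0.03173 and -0.06541. With quantile normalization alone they changed for Wipi2 (-0.02164, and -0.04687 at 6 h) and Npc2 at 6 h (-0.03204). With equal totals alone they changed for Becn1 (-0.01008) and Atg5 (-0.001377). Lamp1 at serum 12 h was -0.1215 and -0.025. For E2F1 at 12 h, Tfeb was -0.0009704 under quantile normalization and ranged from -0.06735 to 0.2112 when a library was left out, negative also without 12 h replicate 1 (-0.02379). Becn1 ranged from -0.07582 to 0.04369 there (0.03318 without 12 h replicate 2), and neither was called. Same-numbered libraries of 55 pairs of groups correlated from -0.277 to 0.455 (18 above 0.1), so the numbers were not taken to pair samples. With the replicate block the count was 26 for E2F1 12 h, 28 for serum 12 h and 5 for EV doxycycline 2 h, and the calls it ended were Atg14 (E2F1 minus serum, 12 h) and Atg4b (EV doxycycline 2 h).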
